A study of Mus musculus with 16 samples.

Results

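Molecular chaperones are proteins that help other proteins fold, keep them from clumping or pass them on for degradation. The genes described here are 36 heat shock and endoplasmic reticulum (ER) chaperones, folding enzymes and their regulators, chosen by gene symbol. Where a gene had several probe sets, the one with the greatest average signal across the 16 arrays stands for it. Of the 36, 34 were measured, out of 18194 genes in all. They comprised 21 ER-resident genes, 9 cytosolic chaperones, 2 mitochondrial chaperonins and the transcription factors Xbp1 and Atf6. Hsp90ab1 and Hsf1 are not analysed here.

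RNA came from whole lung and whole cerebellum of C57BL/6J mice harvested at postnatal day 7. Mice had received dexamethasone, a synthetic ligand of the glucocorticoid receptor, or vehicle, and the title calls the treatment chronic. The sources used here do not give the dose or the schedule. The 4 groups were dexamethasone lung, vehicle lung, dexamethasone cerebellum and vehicle cerebellum, each with 4 arrays. All values below are log2 units of RMA-normalised array signal, and a difference of 1 unit is a doubling. Arrays carry no read depth, and their number limits the precision.

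In the cytosol, heat shock factor 1 turns on Hsp70, Hsp40 and small heat shock protein genes when unfolded proteins accumulate. In the ER, the sensors Ire1, Perk and Atf6 start the unfolded protein response, which raises chaperones, disulfide isomerases and the machinery of ER-associated degradation. Secretory tissues such as lung epithelium carry a large ER load of surfactant and matrix proteins. The activated form of Atf6, with the factor NF-Y, binds a promoter sequence called the ER stress response element.

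The promoters are shown first because ER chaperone genes are commonly grouped by this element. RefSeq promoter windows (GRCm38.p6) of 300 bases, from 250 before to 50 after the start of transcription, were matched for 27 of the 36 genes. Hyou1, Manf, Derl1, Atf6, Hspa8, Hsp90aa1, Cryab, Hsp90ab1 and Hsf1 had no entry. Windows were searched on both strands. The element is CCAAT followed after any 9 bases by the word CCACG. It occurred in 8 of the 18 ER genes with a window and in 0 of 6 cytosolic genes. Over all genes with a window it occurred in 37 of 27025 (0.137%), these 8 included. Matches are printed on the strand that reads the element, with its fixed letters in capitals.
Hspa5, chr2:34772025-34772043, plus strand: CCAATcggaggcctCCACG
Hsp90b1, chr10:86705638-86705656, minus strand: CCAATcgcaaggagCCACG
Hsp90b1, chr10:86705533-86705551, plus strand: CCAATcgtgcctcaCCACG
Calr, chr8:84847075-84847093, plus strand: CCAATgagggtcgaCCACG
Canx, chr11:50325800-50325818, minus strand: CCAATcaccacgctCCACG
Dnajc3, chr14:118937827-118937845, plus strand: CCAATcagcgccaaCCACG
Creld2, chr15:88819520-88819538, minus strand: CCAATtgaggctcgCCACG
Pdia6, chr12:17266491-17266509, plus strand: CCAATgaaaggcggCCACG
Syvn1, chr19:6046532-6046550, plus strand: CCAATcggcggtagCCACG

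A shorter variant has the first word as its reverse complement and a single free base between the words. It occurred in Herpud1 and Dnajb11 among the 18 ER genes and in 12 of 27025 genes in all (0.0444%). The variant was added to the search with the values below already known.
Herpud1, chr8:94386377-94386387, plus strand: ATTGGgCCACG
Dnajb11, chr16:22857852-22857862, plus strand: ATTGGcCCACG

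Both elements are built from the same pair of words, which on their own were common, in 37.4% (CCAAT) and 32.8% of all promoters. The stretches of 150 bases just before the start of Hspa5 (plus strand, chr2:34771940-34772089) and Herpud1 (plus strand, chr8:94386279-94386428) are printed because these genes differ in response, with the element in capitals.
Hspa5: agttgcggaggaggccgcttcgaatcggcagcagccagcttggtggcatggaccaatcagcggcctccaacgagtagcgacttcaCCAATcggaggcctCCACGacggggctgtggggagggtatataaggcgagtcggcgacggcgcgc
Herpud1: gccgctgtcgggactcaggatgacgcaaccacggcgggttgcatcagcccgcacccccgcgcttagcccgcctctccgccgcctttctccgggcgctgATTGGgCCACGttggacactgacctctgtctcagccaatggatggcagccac

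The element began 65 bases before the start of Hspa5 and 52 bases before that of Herpud1. A heat shock element, searched in a single spelling, was matched in Hsph1, Hspd1 and Hspe1 of the 27 genes and in 0.662% of all genes with a window. Its fixed letters are the capitals of the match in Hsph1, and lower case stands for any base.
Hsph1, chr5:149636288-149636300, plus strand: GAActTTCcaGAA

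Hspd1 and Hspe1, which encode the mitochondrial chaperonin and its lid, lie head to head, and 2 matches that share letters on opposite strands fall between them. The 150 bases before the start of Hspe1 (plus strand, chr1:55087998-55088147) show both, with their fixed letters in capitals.
Hspe1: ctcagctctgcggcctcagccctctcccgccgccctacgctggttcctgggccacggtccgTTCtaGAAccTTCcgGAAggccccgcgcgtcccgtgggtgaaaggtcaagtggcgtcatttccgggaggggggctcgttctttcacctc

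No window of the 27 genes held the palindromic glucocorticoid response element, found in 0.475% of promoters, or the unfolded protein response element core TGACGTGG, found in 0.676%. A match is a string of letters and does not show binding, and the absence of a match covers only these letters in these windows.

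Arrays of an organ correlated at 0.95 to 0.994. Marker genes fitted the organ labels. The mean of 5 alveolar type 2 markers was 13.43 to 13.57 in dexamethasone lungs and 12.84 to 13.18 in vehicle lungs, against 6.31 to 6.60 and 6.33 to 6.85 in the corresponding cerebella. Mean values of 5 granule neuron markers were 4.47 to 4.99 in lungs and 10.75 to 11.54 in cerebella. Gapdh control probes for the 3′ and 5′ ends, which read RNA integrity, differed by 0.446 to 0.708 in dexamethasone lungs and by 0.84 to 1.04 in vehicle lungs. These ranges did not overlap. Those of the actin control probes did, at 0.451 to 0.642 in dexamethasone lungs and 0.611 to 0.667 in vehicle lungs. The part of RNA integrity in the lung results was not tested. The female transcript Xist exceeded 9 on 3 of 4 arrays of dexamethasone lung, 1 of 4 of vehicle lung, 2 of 4 of dexamethasone cerebellum and 1 of 4 of vehicle cerebellum. The design text calls the 4 arrays of a group biological replicates, and litters are not given, so the spread behind each p-value is that of these samples.

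In lung, the cytosolic chaperones Hspa1a, Hspa1b and Hspb1 and the ER genes Herpud1, Dnajb9 and Sdf2l1 rose with dexamethasone, by 1.44-fold to 2.36-fold. The transcription factor Atf6 rose 1.26-fold. The collagen chaperone Serpinh1 and the Hsp40 protein Dnaja1 fell 1.55-fold and 1.51-fold. The large ER chaperones Hspa5, Hsp90b1, Calr and Canx had log2 changes between -0.13 and 0.12, none past the threshold. In all, 9 of 34 genes (26.5%) passed a limma adjusted p of 0.05, 7 higher and 2 lower. Among all 18194 genes 31.2% passed, 15.7% higher and 15.5% lower, so the chaperones were called at about the rate of genes in general. The groups did not overlap for 10 of the 34 (29.4%), against 30.6% of all genes. The median log2 change was 0.074 over the 34 and 0.048 over all genes. In the same lungs 9 of 9 neutrophil markers were higher, with a mean level of 11 to 11.77 in dexamethasone lungs and 8.6 to 9.47 in vehicle lungs. Of 8 macrophage markers 4 were higher and 1 lower, with a mean level of 9.24 to 10.35 in dexamethasone lungs and 8.53 to 8.76 in vehicle lungs. The part of these cells in the chaperone values was not tested. In whole organs, fewer cells of a type and less RNA per cell cannot be told apart.

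**Figure D1:**
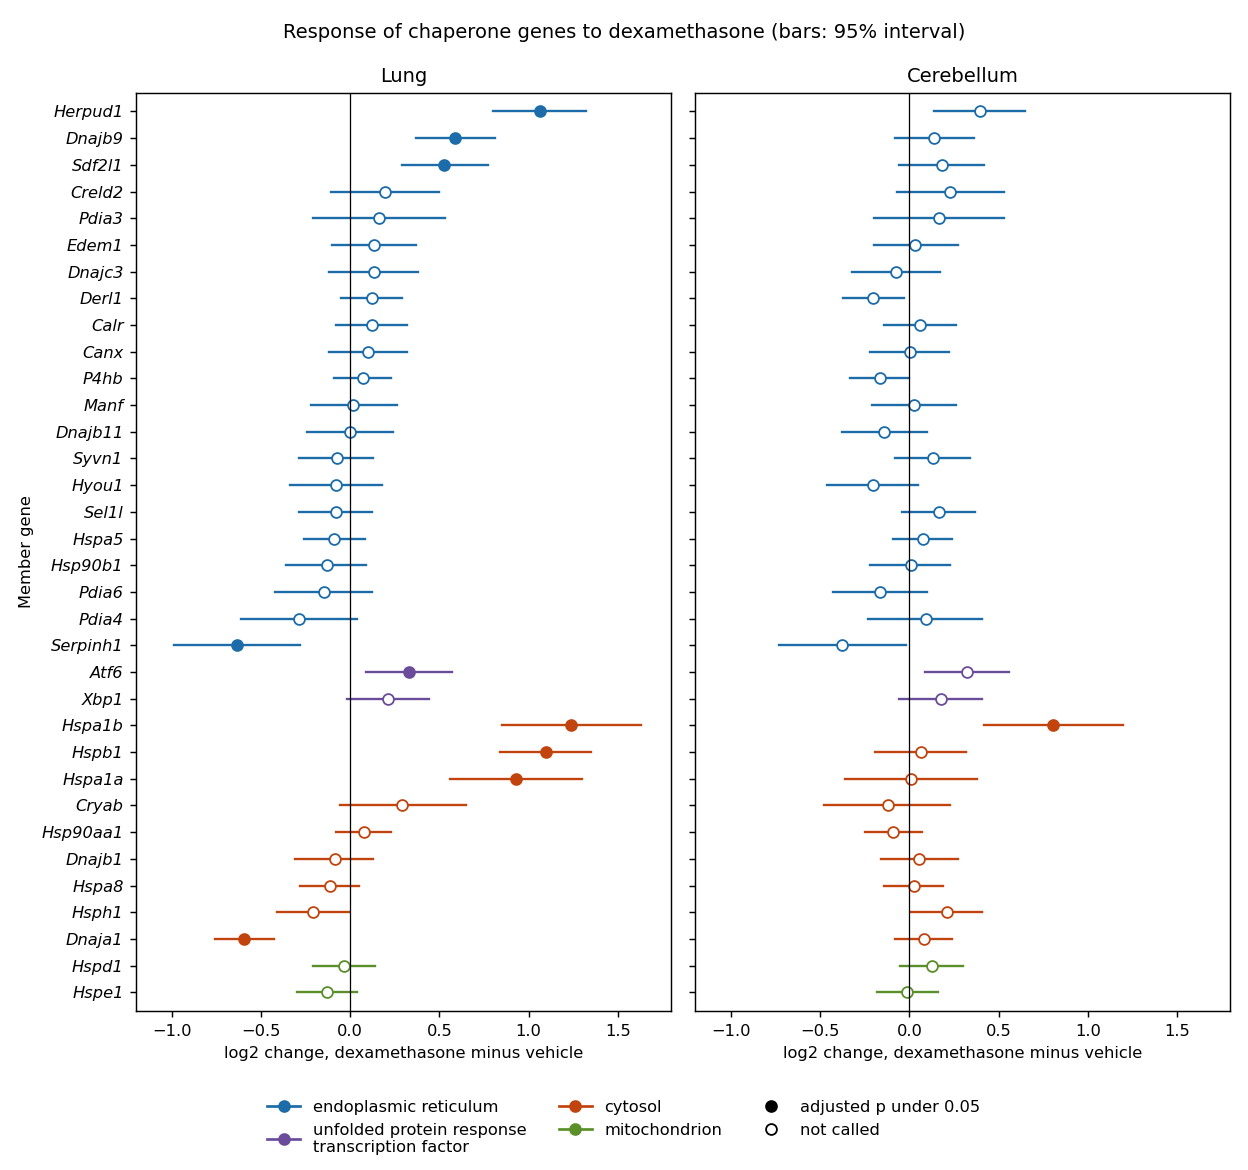
Log2 change, dexamethasone minus vehicle, of the 34 measured chaperone genes in lung and cerebellum (x axis, log2 units; n = 4 arrays a group; bars, 95% intervals; filled points, adjusted p under 0.05). In lung 9 points are filled, from -0.64 for Serpinh1 to 1.24 for Hspa1b, and in cerebellum only Hspa1b at 0.81 is filled.

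Herpud1, at chr8:94386429-94395371, is a membrane protein of the ER degradation complex and carries the short ER stress element printed above. It had values of 11.10, 11.12, 11.33 and 11.74 in dexamethasone lungs and of 10.24, 10.38, 10.14 and 10.28 in vehicle lungs. Every treated lung lay above every vehicle lung, and array B46 was the highest. The log2 change was 1.06 ± 0.12 (SE), a 2.09-fold rise (limma adjusted p = 5.92e-06). Both of its probe sets were called higher.

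Dnajb9 (ERdj4), at chr12:44205897-44210068, is an ER Hsp40 protein that assists degradation and restrains Ire1. Its values were 10.91, 11.01, 11.24 and 11.36 in dexamethasone lungs and 10.63, 10.61, 10.48 and 10.44 in vehicle lungs, again without overlap. It rose 1.5-fold (log2 change 0.59 ± 0.10, limma adjusted p = 0.000354). Sdf2l1, at chr16:17130138-17132383, is a cofactor of ER Hsp40 proteins and was dim, with 6.32, 6.39, 6.48 and 6.50 in dexamethasone lungs and 5.78, 5.69, 6.28 and 5.82 in vehicle lungs. It rose 1.44-fold (log2 change 0.53 ± 0.11, limma adjusted p = 0.00187), and the vehicle array B19 lay just under the treated range. RMA compresses differences between dim probe sets.

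Serpinh1 (Hsp47), at chr7:99345375-99353239, binds procollagen in the ER. It had 11.35, 11.17, 11.34 and 10.37 in dexamethasone lungs and 11.71, 11.68, 11.62 and 11.76 in vehicle lungs. The treated array B46 lay far below the other 3, which were themselves below all vehicle arrays. The log2 change was -0.64 ± 0.17 (limma adjusted p = 0.00802), and -0.41 without B46, still past the threshold. Both of its probe sets were lower, and with them averaged the change was -1.15. The collagen and fibroblast markers moved with it: 6 of 8 fell in lung and 0 rose, with a mean level of 10.53 to 10.72 in dexamethasone lungs and 11.32 to 11.61 in vehicle lungs. Their part in the Serpinh1 result was not tested.

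Of the other 17 ER genes none passed the threshold in lung, and their log2 changes ran from -0.28 for the disulfide isomerase Pdia4 to 0.20 for Creld2. Hspa5 (BiP), the ER Hsp70 protein and the best-known marker of the unfolded protein response, had 13.14, 13.20, 13.14 and 13.01 in dexamethasone lungs and 13.22, 13.24, 13.09 and 13.30 in vehicle lungs. The groups overlapped, and the change was -0.09 (95% interval -0.26 to 0.08, limma adjusted p = 0.438). The ER Hsp90 protein Hsp90b1 gave -0.13 ± 0.11, the calcium-binding lectin chaperones Calr and Canx 0.12 ± 0.10 and 0.10 ± 0.10. All 4 disulfide isomerases, which make and reshuffle disulfide bonds, were uncalled, with Pdia3 at 0.16, Pdia4 at -0.28, Pdia6 at -0.15 and P4hb at 0.07. So were the exchange factor Hyou1 (-0.08), the Hsp40 protein Dnajb11 (-0.001) and the secreted survival factor Manf (0.02).

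The ER degradation genes other than Herpud1 were also uncalled. The ubiquitin ligase Syvn1 and its partner Sel1l both gave -0.08, the mannosidase-like protein Edem1 gave 0.14 and the channel protein Derl1 0.12. Probe sets differed for several genes. The probe set used for Dnajc3, a cochaperone and inhibitor of the Perk pathway, gave 0.13, while 3 of its 5 probe sets were called higher in lung. For Derl1 2 of 4 probe sets were higher, and for Edem1 1 of 2. With the probe sets of each gene averaged, Dnajc3 (log2 change 0.35, adjusted p = 0.00213), Edem1 (0.35, adjusted p = 0.00747) and Derl1 (0.40, adjusted p = 0.000155) passed the threshold. Which probe set is closer to the gene's level was not tested.

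The 8 ER genes with the printed ER stress response element had lung changes from -0.15 to 0.20, with a median of 0.01. None was called, beside 31.2% of all genes. The 10 ER genes with a window but without that element ran from -0.64 to 1.06, with a median of 0.10. Of these 10, 3 were higher (Herpud1, Dnajb9, Sdf2l1) and 1 lower (Serpinh1). Herpud1 and Dnajb11 among them carry the shorter variant, so the 10 are not free of every ER stress element. The split is a description of these windows and was made with the values known. Dnajc3 stands among the 8 and is the one whose call depended on the probe set.

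Of the 2 transcription factors, Atf6, at chr1:170704457-170868585, was higher in treated lung. It had 8.90, 8.94, 9.14 and 9.17 in dexamethasone lungs and 8.77, 8.72, 8.55 and 8.80 in vehicle lungs. The gap between the groups was small, and the rise 1.26-fold (log2 change 0.33 ± 0.11, limma adjusted p = 0.034). Only 1 of its 3 probe sets was called, and the call was lost without B40, B46, B14 or B19 and with array weights, at adjusted p up to 0.0976. Xbp1, whose spliced form is made by Ire1, gave 0.21 ± 0.11 (limma adjusted p = 0.162). A probe set signal does not tell spliced from unspliced Xbp1, or cleaved from full-length Atf6.

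Among the 9 cytosolic genes, the inducible Hsp70 gene Hspa1b had the largest rise. Hspa1b, at chr17:34956429-34959238, had 8.65, 8.89, 9.02 and 9.21 in dexamethasone lungs and 7.68, 7.73, 7.65 and 7.76 in vehicle lungs. It rose 2.36-fold (log2 change 1.24 ± 0.18, limma adjusted p = 7.49e-05), on 3 of 3 probe sets. Hspa1a, at chr17:34969359-34972156, had 7.75, 7.59, 8.03 and 8.10 in dexamethasone lungs and 6.83, 6.60, 7.03 and 7.30 in vehicle lungs. It rose 1.90-fold (0.93 ± 0.18, limma adjusted p = 0.000635). The genes are near-identical neighbours, with promoter windows that differ at 4 of 300 bases. No probe or transcript sequences were compared, so whether the array keeps their transcripts apart was not tested.

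Hspb1, at chr5:135887919-135889563, encodes the small heat shock protein Hsp25, which holds unfolded proteins and binds actin. Values were 12.51, 12.26, 12.37 and 12.69 in dexamethasone lungs and 11.19, 11.45, 11.37 and 11.43 in vehicle lungs. The groups stood well apart, and the rise was 2.14-fold (log2 change 1.10 ± 0.12, limma adjusted p = 3.16e-06) on both probe sets. Cryab (αB-crystallin), a small heat shock protein abundant in muscle, had 12.08, 12.00, 12.29 and 12.05 in dexamethasone lungs and 11.71, 11.89, 11.81 and 11.86 in vehicle lungs. The groups did not overlap, yet the change of 0.29 ± 0.17 missed the threshold (limma adjusted p = 0.212), with 1 of its 3 probe sets called higher. Heart muscle markers moved with both: 9 of 10 were higher in lung, with a mean level of 8.62 to 9.39 in dexamethasone lungs and 7.93 to 8.16 in vehicle lungs. Their part in the small heat shock protein values was not tested.

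Dnaja1, at chr4:40722468-40734965, is a constitutive Hsp40 partner of Hsc70 and went the other way. It had 11.31, 11.24, 11.16 and 11.04 in dexamethasone lungs and 11.85, 11.74, 11.76 and 11.78 in vehicle lungs. All treated lungs lay below all vehicle lungs, and the gene fell by 0.60 ± 0.08 on the log2 scale (limma adjusted p = 2.12e-05), on 3 of 3 probe sets. Proliferation markers were lower in the same lungs, 9 of 9, with a mean level of 7.44 to 7.80 in dexamethasone lungs and 9.59 to 9.99 in vehicle lungs, and their part was not tested.

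The other cytosolic genes did not pass the threshold. The constitutive Hsp70 protein Hspa8 (Hsc70) gave -0.12 ± 0.08, Hsp90aa1 0.08 ± 0.08 and the heat-inducible Hsp40 gene Dnajb1 -0.09 ± 0.10. Their probe sets disagreed in part: the other one of Dnajb1 was called higher (0.49, adjusted p = 0.00357 over all probe sets), and 1 of 4 for Hspa8 was called lower (-0.45, adjusted p = 0.00234). The Hsp110 exchange factor Hsph1 gave -0.21 ± 0.09 (limma adjusted p = 0.0991). Mitochondrial Hspd1 and Hspe1, which share the promoter printed above, gave -0.04 ± 0.08 and -0.13 ± 0.08. Hsph1, Hspd1 and Hspe1 are the genes whose windows matched the heat shock element in the spelling searched, and none of them was called in either organ. The windows of Hspa1a and Hspa1b did not match these letters, which does not show that those genes lack the element.

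**Figure D2:**
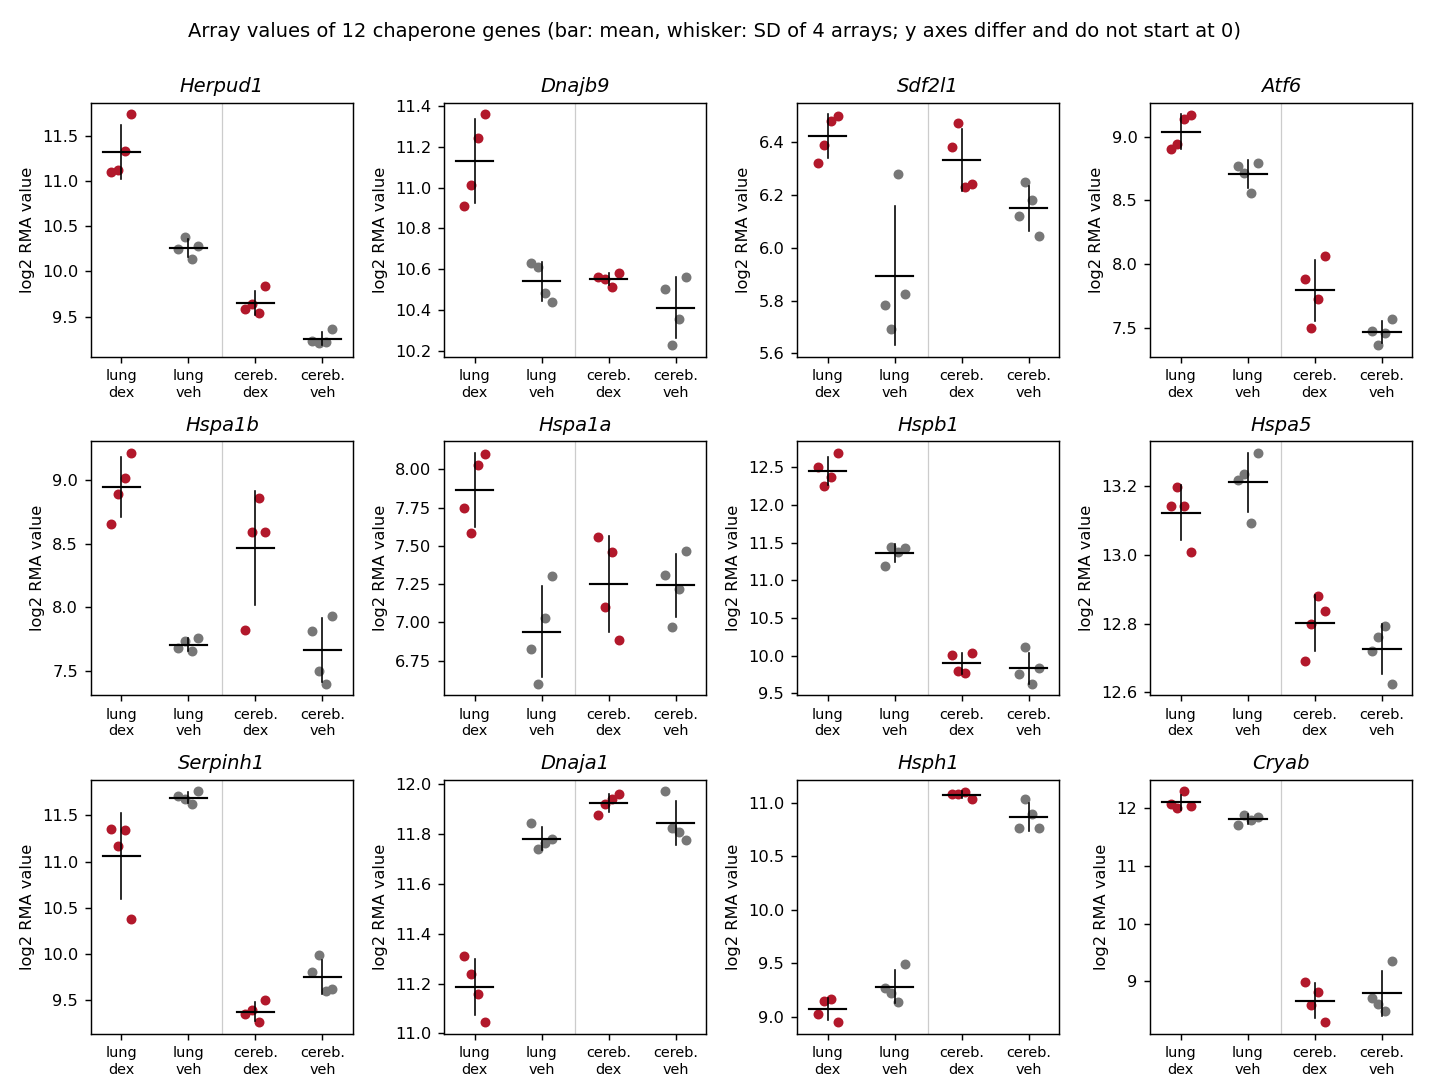
Log2 RMA value (y axes, differing in range and not starting at 0) of 12 chaperone genes on each array, with the mean and SD of 4 arrays, for dexamethasone (red) beside vehicle (grey) in lung and cerebellum. Herpud1, Hspa1b and Hspb1 separate the lung groups by about 1 unit, Hspa5 does not separate them, and Serpinh1 has a single low treated lung at 10.37.

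In cerebellum Hspa1b was the only one of the 34 genes to pass the threshold with dexamethasone. It had 7.82, 8.59, 8.86 and 8.59 in dexamethasone cerebella and 7.82, 7.50, 7.40 and 7.93 in vehicle cerebella. Array B39 lay among the vehicle values, and the other treated cerebella lay above them. The gene rose 1.75-fold (log2 change 0.81 ± 0.18, limma adjusted p = 0.0171), on 3 of 3 probe sets. The call was lost without B49, B50, B79 or B80 and in a fit on the cerebellar arrays alone, at adjusted p up to 0.0698. Hspa1a, its near-identical neighbour, gave 0.01 ± 0.18 there. Of the probe sets not used for a gene's value, 1 of 2 for Edem1 was called lower in cerebellum (-0.63, adjusted p = 0.0143 over all probe sets) and higher in lung (0.56, adjusted p = 0.00509). With its probe sets averaged, the lung effect of Edem1 minus its cerebellum effect was called (0.65, adjusted p = 0.00194), against 0.10 on the probe set used.

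The count of 1 of 34 (2.94%) compares with 4.8% of all genes, 2.84% higher and 1.97% lower. At an unadjusted p under 0.05 there were 7 of 34 (20.6%), against 17% of all genes. The adjusted count was 0 without B50, B79 or B80 and 3 without the treated lung B46, which shares in the estimate of the spread. The groups of 5 genes did not overlap (14.7%, against 12.6% of all genes), namely Herpud1, Serpinh1, P4hb, Derl1 and Hsp90aa1. Herpud1 had 9.58, 9.64, 9.54 and 9.83 in dexamethasone cerebella and 9.23, 9.21, 9.22 and 9.36 in vehicle cerebella. Its change of 0.40 ± 0.12 missed the threshold (limma adjusted p = 0.0783) although every treated array was above every vehicle array, and it passed under 4 alternatives, at adjusted p of 0.012 to 0.0494. Serpinh1 had 9.34, 9.39, 9.26 and 9.49 in dexamethasone cerebella and 9.80, 9.98, 9.59 and 9.62 in vehicle cerebella, a change of -0.38 ± 0.17 (limma adjusted p = 0.256). Collagen and fibroblast markers in the same cerebella were 8.98 to 9.16 with dexamethasone and 9.50 to 9.95 with vehicle, 3 of 8 called lower, and their part was not tested.

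Atf6 gave 0.33 ± 0.11 in cerebellum, close to its lung value, with a limma adjusted p of 0.118. The ER median was 0.032 and the cytosolic median 0.056, against 0.007 for all genes. Without B39 the ER median was 0.097. ER changes ran from -0.38 to 0.40 and those of the 8 uncalled cytosolic genes from -0.12 to 0.21. Hspa5 gave 0.08 (95% interval -0.09 to 0.24).

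Whether the organs responded differently was tested as the lung effect minus the cerebellum effect. Of 34 genes 6 passed (17.6%), 4 higher and 2 lower, against 21.3% of all genes, 9.85% higher and 11.5% lower. Hspb1 had the largest positive difference, 1.03 ± 0.17 (limma adjusted p = 0.000389). In cerebellum its values were 10.01, 9.79, 9.77 and 10.04 with dexamethasone and 9.76, 10.12, 9.63 and 9.84 with vehicle, which overlapped. Hspa1a differed by 0.92 ± 0.25 (adjusted p = 0.0137), Herpud1 by 0.67 ± 0.17 (adjusted p = 0.0111) and Dnajb9 by 0.45 ± 0.15 (adjusted p = 0.0386). Cerebellar values of Hspa1a were 7.55, 7.10, 7.46 and 6.88 with dexamethasone and 7.31, 6.97, 7.22 and 7.47 with vehicle. Those of Dnajb9 were 10.56, 10.55, 10.52 and 10.58 with dexamethasone and 10.50, 10.23, 10.36 and 10.56 with vehicle. Both genes overlapped between the groups there. The call for Dnajb9 was lost on leaving out any of B39, B49, B50, B52, B78, B81, B40, B46, B19 or B22, at adjusted p up to 0.0805.

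Dnaja1 had the largest negative difference, -0.68 ± 0.11 (limma adjusted p = 0.000376). Its cerebellar values were 11.88, 11.92, 11.94 and 11.96 with dexamethasone and 11.97, 11.82, 11.81 and 11.78 with vehicle, so the fall seen in lung was not seen there. Hsph1 differed by -0.42 ± 0.13 (limma adjusted p = 0.0305) although it was called in neither organ. It had 9.03, 9.15, 9.17 and 8.95 in dexamethasone lungs and 9.27, 9.22, 9.14 and 9.49 in vehicle lungs. In cerebellum it had 11.08, 11.09, 11.10 and 11.03 with dexamethasone and 10.76, 11.04, 10.90 and 10.77 with vehicle. The low treated lungs and high treated cerebella each overlapped their vehicle groups, and the call was lost without B49, B50, B78, B81, B28, B46 or B22, at adjusted p up to 0.0636. Hspa1b, called in both organs, had a difference of 0.43 (95% interval -0.12 to 0.98, limma adjusted p = 0.272). Sdf2l1, Serpinh1 and Atf6, called in lung alone, had differences of 0.34, -0.26 and 0.004, none past the threshold (adjusted p = 0.148, 0.501 and 0.99). Without B19 the difference of Sdf2l1 passed (0.47, adjusted p = 0.0138). Derl1 missed the threshold at 0.32 (limma adjusted p = 0.0534). It passed with probe sets averaged, with dim genes left out, after cyclic loess, with robust eBayes and without B31, at adjusted p of 0.00458 to 0.0335.

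Cytosolic and ER genes were then set side by side. On the probe sets used, 4 of 9 cytosolic genes (44.4%) and 4 of 21 ER genes (19%) were called in lung, on either side of the 31.2% of all genes. Each class held 3 rises and 1 fall, and the medians were close, at 0.076 for the cytosol and 0.072 for the ER. With probe sets averaged, the ER genes Dnajc3, Edem1 and Derl1 were also called higher (limma adjusted p = 0.00213, 0.00747 and 0.000155). In that setting 30.2% of all genes were called, so the low ER share depended on the probe set. The ER median was -0.006 without B40, and the cytosolic median 0.202 with probe sets averaged. On the probe sets used, changes beyond 0.5 on the log2 scale were seen for the same 4 called genes of each class. The mean over the 9 cytosolic genes, relative to vehicle lungs, was 0.24, 0.23, 0.35 and 0.35 in dexamethasone lungs and -0.04, -0.05, -0.03 and 0.12 in vehicle lungs. That over the 21 ER genes was 0.09, 0.08, 0.17 and -0.01 in dexamethasone lungs and -0.02, 0.02, -0.09 and 0.08 in vehicle lungs. The cytosolic means did not overlap between the groups and the ER means did.

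In cerebellum the cytosolic mean was 0.13, 0.08, 0.20 and 0.05 with dexamethasone and 0.02, -0.02, -0.09 and 0.09 with vehicle. The ER mean was -0.01, 0.01, 0 and 0.07 with dexamethasone and -0.02, 0.09, 0 and -0.07 with vehicle. Both overlapped. The cytosolic means carry the large changes of Hspa1a, Hspa1b and Hspb1. Whether the Hsp70 pair shares signal on the array was not tested, and the classes were not tested against each other.

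**Figure D3:**
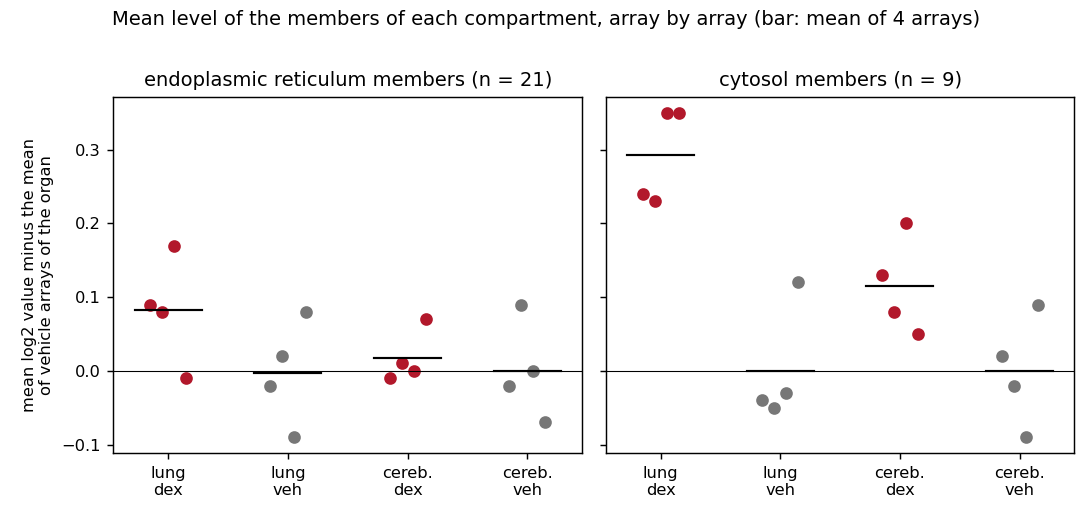
Mean log2 value of the 21 ER genes and of the 9 cytosolic genes on each array, minus the mean of the vehicle arrays of that organ (y axis, log2 units; bar, mean of 4 arrays). Cytosolic means of dexamethasone lungs lie at 0.23 to 0.35, above all vehicle lungs, and ER means overlap in both organs.

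Without treatment the calls between organs differed by compartment on the probe sets used. In vehicle lung 13 of the 21 ER genes were higher than in vehicle cerebellum and 0 were lower. Among the 13, Derl1, Pdia3 and Pdia6 lost their calls under some alternatives. The ER gene Sdf2l1 was called lower with array weights and without B19. Of the 9 cytosolic genes 2 were higher and 3 lower, and both mitochondrial chaperonins were lower. Over the 34 genes 22 passed (64.7%), 17 higher and 5 lower, against 57.7% of all genes, 28% higher and 29.7% lower. The median difference was 0.486 for ER genes, -0.063 for cytosolic genes and 0.002 for all genes. The cytosolic median was the value of Dnaja1, which depended on the probe set and was -0.535 with probe sets averaged.

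On the probe sets used Serpinh1 had the largest ER difference, with 11.62 to 11.76 in vehicle lungs and 9.59 to 9.98 in vehicle cerebella (3.86-fold, log2 difference 1.95 ± 0.17, limma adjusted p = 1.99e-08). Dnajc3 was 3.61-fold higher in lung (1.85 ± 0.12), Edem1 2.21-fold (1.14 ± 0.11), Herpud1 2.01-fold (1.01 ± 0.12) and the disulfide isomerase P4hb 1.94-fold (0.96 ± 0.08). Smaller differences were found for Hspa5 (0.49 ± 0.08) and Hsp90b1 (0.51 ± 0.11). All 4 disulfide isomerases were higher in lung on the probe sets used, but 3 of them not on their second probe set. The second probe set of Pdia3 was called lower in lung (-0.42, adjusted p = 0.00763 over all probe sets), and those of Pdia6 and Pdia4 gave -0.14 and -0.01, uncalled. These second probe sets were dim, with means over the 16 arrays of 5.34, 4.45 and 4.31. Pdia3 and Pdia6 were not called once probe sets were averaged (adjusted p = 0.668 and 0.168). Averaging also lowered the differences of Serpinh1 to 1.12, Dnajc3 to 1.05, Pdia4 to 0.29 and Hspa5 to 0.26, which stayed past the threshold. Edem1, at 1.25, was then above Serpinh1, whose second probe set gave 0.29 and was uncalled. Without the vehicle cerebellum B81 that of Pdia3 was 0.36, against 0.55 with all arrays. Calr, Canx, Hyou1 and Syvn1 had differences between -0.09 and -0.02 and were uncalled. Sdf2l1 gave -0.25 and was uncalled (limma adjusted p = 0.0658). It was called lower with array weights (-0.26, adjusted p = 0.0314) and without B19 (-0.38, adjusted p = 0.0018). Xbp1 and Atf6 were higher in lung by 0.92 ± 0.11 and 1.24 ± 0.11.

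Among cytosolic genes, Cryab showed the largest difference, with 11.71 to 11.89 in vehicle lungs and 8.49 to 9.36 in vehicle cerebella (8.14-fold, log2 difference 3.03 ± 0.17, limma adjusted p = 5.74e-11). Hspb1 was 2.88-fold higher in lung (1.53 ± 0.12). The lung samples carried heart muscle markers at a mean of 7.93 to 8.16, against 5.26 to 5.41 in vehicle cerebella, and their part in these values was not tested. Lower in lung were Hsph1 (2.99-fold, log2 difference -1.58 ± 0.09), Hsp90aa1 (1.79-fold, -0.84 ± 0.08) and Hspa8 (1.53-fold, -0.62 ± 0.08). Hspd1 was 1.70-fold lower (-0.76 ± 0.08) and Hspe1 1.37-fold lower (-0.46 ± 0.08). The inducible Hspa1a and Hspa1b, and the Hsp40 genes Dnaja1 and Dnajb1, did not pass the threshold between vehicle organs on the probe sets used. For Dnaja1 this depended on the probe set: the one used gave -0.06, and the other 2 were called lower in lung (-0.60 and -0.94). Averaged, they gave -0.54 (adjusted p = 2.93e-05).

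**Figure D4:**
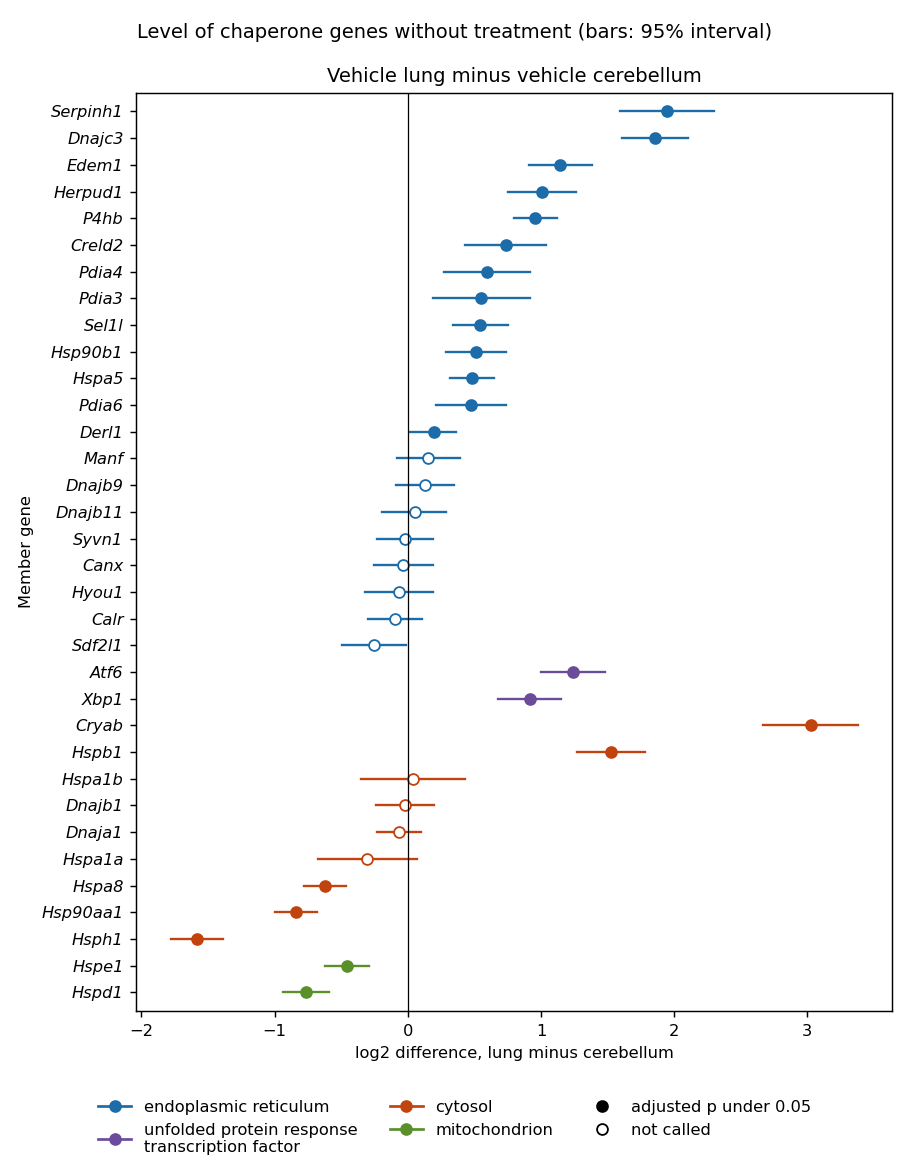
Log2 difference, vehicle lung minus vehicle cerebellum, of the 34 chaperone genes (x axis, log2 units; n = 4 arrays a group; bars, 95% intervals; filled points, adjusted p under 0.05). ER genes extend to the right, up to 1.95 for Serpinh1, and the mitochondrial genes and Hsph1, Hsp90aa1 and Hspa8 lie to the left of 0.

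Of 124 other genes of these pathways 118 were measured. In lung 26 were higher and 12 lower (32.2%, beside the 31.2% of all genes given above), with a median of 0.035. The small heat shock protein Hspb8 had the largest rise, 3.35-fold, with 9.34 to 9.95 in dexamethasone lungs and 7.54 to 8.07 in vehicle lungs (log2 change 1.74 ± 0.30, limma adjusted p = 0.000329). The ER prolyl isomerase Fkbp11 rose 1.97-fold, the Hsp110 family member Hspa4l 1.92-fold and asparagine synthetase (Asns), a target of the Perk branch, 1.91-fold. The largest falls were those of the ER calcium-binding proteins Rcn1 (2.21-fold) and Rcn3 (1.74-fold), the transcription factor Creb3l1 (1.73-fold), which promotes collagen secretion, and the Hsp70 relative Hspa13 (1.40-fold).

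By group, the 16 genes of the sensors and the Perk branch had 5 rises and 2 falls in lung (43.8% called, beside 31.2% of all genes). Besides Asns the rises were Trib3 (1.73-fold), Chac1 (1.71-fold), Ppp1r15a (1.62-fold) and Ddit3 (1.48-fold), which were named after their values were seen. The group did not move 1 way. Its log2 changes ran from -0.793 to 0.933, 10 positive and 6 negative, with a median of 0.179. Among 37 cytosolic chaperones and cochaperones 7 rose and 3 fell. Hspb7 (1.86-fold) and Hspb6 (1.61-fold) were among the rises and were also named after their values were seen. Both are muscle small heat shock proteins and stand beside the heart muscle markers given above. Of 28 other ER folding enzymes and cofactors 5 rose and 6 fell, of 15 degradation genes 4 rose and 1 fell, of 15 translocon and signal peptide genes 3 rose and 0 fell, and of 7 mitochondrial chaperones 2 rose and 0 fell. The share called in a group ran from 20% to 43.8%, on either side of that of all genes.

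In cerebellum 5 of the 118 were higher and 0 lower (4.24%, beside 4.8% of all genes), with a median of -0.045. Chac1, a glutathione-degrading enzyme of the Perk branch, had 8.48 to 9.78 in dexamethasone cerebella and 7.57 to 7.90 in vehicle cerebella (3.08-fold, log2 change 1.62 ± 0.24, limma adjusted p = 0.000962). Ern1, which encodes the sensor Ire1α, had 7.43 to 7.91 in dexamethasone cerebella and 6.80 to 6.96 in vehicle cerebella. It rose 1.8-fold (0.85 ± 0.10, limma adjusted p = 0.000204). The Hsp90 cochaperone Chordc1 rose 1.63-fold and the mannosidase Edem3 1.47-fold. The fifth, named after its value was seen, was the mitochondrial Hsp40 gene Dnaja3 (1.39-fold). Ern1, Chordc1, Edem3 and Dnaja3 were uncalled in lung, and the lung effect minus the cerebellum effect was called lower for each (adjusted p = 0.00049, 0.000111, 0.0155 and 0.0284). In the same cerebella 4 of 9 oligodendrocyte markers were higher, with a mean level of 10.17 to 10.98 with dexamethasone and 9.06 to 10.22 with vehicle. Of 6 endothelial markers 4 were lower, with a mean level of 7.06 to 7.27 with dexamethasone and 7.79 to 8.12 with vehicle. The part of these markers was not tested.

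**Figure D5:**
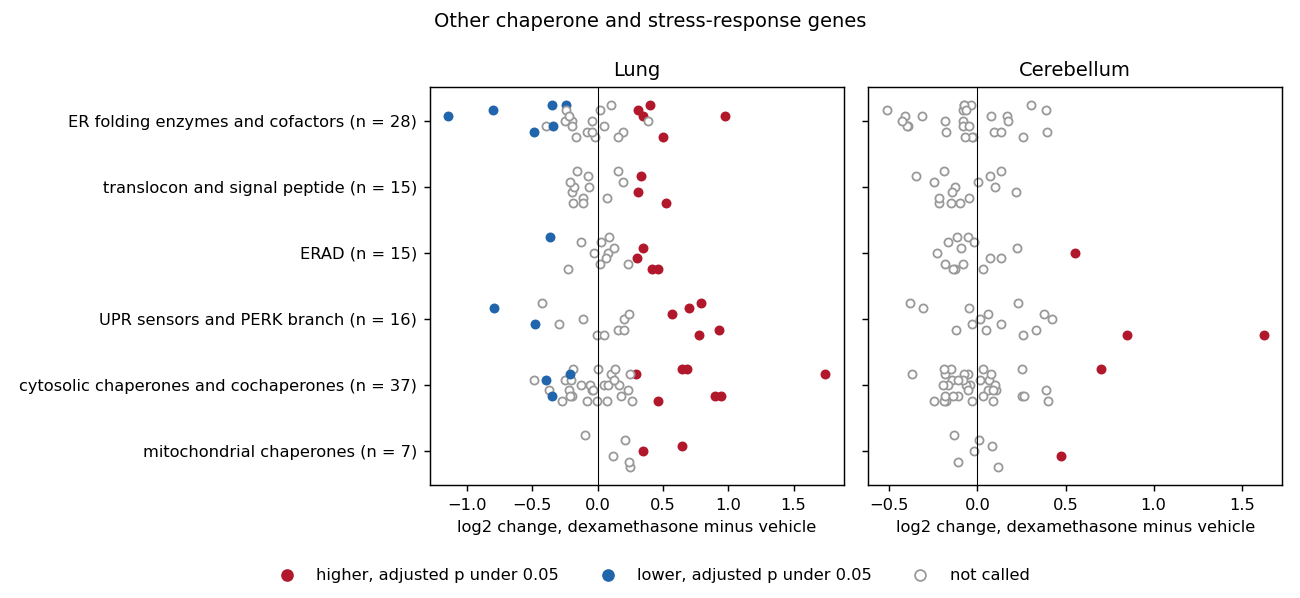
Log2 change, dexamethasone minus vehicle (x axis, log2 units), of 118 other chaperone and stress response genes in 6 groups, for lung and cerebellum (red, higher; blue, lower; open, not called at adjusted p under 0.05; x ranges differ between panels). Lung shows 26 red and 12 blue points in all, and cerebellum 5 red points, led by Chac1 at 1.62.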

How the data were processed

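Per the labels' protocols, total RNA was amplified to biotin-labelled cRNA for Affymetrix mouse arrays. The deposited values are log2 signals made with RMA by the authors, per the submitters' processing notes, which give no version. The sources used here do not give its settings. The lowest value was 3.15, the highest 14.8, and medians of the arrays lay between 5.87 and 6.00. RMA gives every probe set a value whether or not its transcript is detected.

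Of 45101 probe sets 64 were controls, 34958 had 1 gene symbol, 932 several and 9147 none in the table used here, and only the second kind was used. Symbols were updated through RefSeq for 18033 of 18194 genes. Each gene was fitted in R 4.3.3 with limma 3.58.1 (lmFit, contrasts, eBayes), with 4 group means and 12 residual degrees of freedom over the 16 arrays. Benjamini-Hochberg adjustment ran over 18194 genes, and an adjusted p under 0.05 was a call. Errors beside a log2 change are moderated standard errors. In simulated data of 18194 genes with only 200 changed, a 2-fold change was recovered for 88.5% of genes in lung and 92% in cerebellum. A 1.5-fold change was recovered for 54% and 54.5%. In the data themselves 5680 genes were called in lung and 874 in cerebellum. The adjusted threshold was thus less strict than in the simulation, whose rates do not give the sensitivity of these comparisons.

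The members, their classes, the other lists and the promoter elements were chosen with earlier results of these data known. Members called in a dexamethasone comparison or in the difference of effects are given array by array. Of the other pathway genes up to 4 rises and 4 falls per organ were named by size. Alternatives were averaged probe sets, each probe set alone, dim genes left out, a further quantile or cyclic loess normalization, a fit on the contrast's arrays, robust eBayes with a trend, array weights, Xist as a covariate, wider compartment classes, and leaving out each array. The labels give 1 hybridisation date for all arrays, so batches could not be tested.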

Additional observations from a re-analysis of the deposited data

Results flagged for a closer look

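Of 136 sets of 4 arrays, 1 for each gene and group, 5 held an array far from the others by Dixon's criterion, which chance gives in about 1 of 20 sets. Hsp90b1 was 12.088 in the vehicle lung B12, against 11.919 to 11.938 on the other vehicle lungs. Dnajc3 was 9.346 in the dexamethasone cerebellum B39, against 8.776 to 8.837. Herpud1 was 9.361 in the vehicle cerebellum B81, against 9.207 to 9.233. Sel1l, the partner of the ER ubiquitin ligase Syvn1, was 10.41 in the dexamethasone cerebellum B52, against 10.507 in the others, and 10.917 in the dexamethasone lung B31, against 10.715 to 10.74.

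The response of 6 genes differed between the organs in the test of the lung effect minus the cerebellum effect. The difference was positive for Hspb1 (1.03), Hspa1a (0.919), Herpud1 (0.667) and Dnajb9 (0.448), and negative for Dnaja1 (-0.675) and Hsph1 (-0.421). For Dnajb9 the call was lost on leaving out any of 10 arrays, at adjusted p of 0.0515 to 0.0805, and with p-values adjusted over all probe sets, at 0.0501. For Hsph1 it was lost on leaving out any of 7 arrays, at 0.0516 to 0.0636.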

How the results depend on the processing

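The count of called genes kept within 1.5 times its value in lung (9, range 8 to 13), for the difference of effects (6, range 4 to 8) and between vehicle organs (22, range 21 to 23). In cerebellum it was 1, against 2 with dim genes left out, 4 with array weights and 0 to 3 on leaving out an array, the 3 being without the treated lung B46. It was 0 without B50, B79 or B80. The ER median of 0.032 in cerebellum ran from -0.017 to 0.097 on leaving out an array, the highest without B39. In lung the ER median of 0.072 ran from -0.006 to 0.091, the lowest without B40. The cytosolic median of 0.076 in lung was 0.202 with probe sets averaged and -0.036 with the mitochondrial genes added. Apart from the fit of each probe set alone, called values kept their sign. The dexamethasone contrasts and the difference of effects gave 2411 values to compare, called ones included. Among these, 100 uncalled values changed sign, at a size of at most 0.30. Some genes called between vehicle organs had the opposite sign there on a single probe set not used for the gene's value. They were Pdia3 (-0.42, called), Hspa5 (-0.17), Pdia6 (-0.14), Derl1 (-0.06), Sel1l (-0.02), Pdia4 (-0.01) and Hsp90aa1 (0.002). On the probe sets used, calls in lung held under the alternatives run except that for Atf6. Between vehicle organs Derl1 lost its call under 14 of 24 alternatives, 12 of them the leaving out of B12, B14, B22, B28, B40, B49, B50, B52, B78, B79, B80 or B81, and Pdia3 and Pdia6 with probe sets averaged. Xbp1 was called in lung with probe sets averaged (adjusted p = 0.0332) and after cyclic loess (0.0463). In cerebellum Serpinh1 was called with array weights (0.038) and without B46 (0.025), Atf6 without B49 (0.0415) and Hsph1 with array weights (0.0479). For the difference of effects Derl1 was called under several alternatives (0.00458 to 0.0335) and Sdf2l1 without B19 (0.0138). Between vehicle organs Sdf2l1 was called lower with array weights (0.0314) and without B19 (0.0018), and Manf higher after cyclic loess (0.0266). The filter on dim genes dropped Sdf2l1 and left 10942 genes. No paired analysis was possible because no replicate number is shared between groups. With 4 arrays a group, small changes can be missed.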
